A study of Mus musculus with 12 samples.

Results

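Retinoid metabolism in these cardiac cells was described through 9 genes that make, degrade or sense retinoic acid: the alcohol dehydrogenase Adh1, the retinaldehyde dehydrogenases Aldh1a1, Aldh1a2 and Aldh1a3, the retinoic acid hydroxylase Cyp26b1, and the receptors Rara, Rarb, Rarg and Rxra. The genes were taken by symbol from the 12528 genes of the deposited tables, where all 9 are listed and all 9 passed the filter on low values. They were chosen by family, with their measured values in these same libraries in view: the differences between the groups in both contrasts, such as the lower Aldh1a1 of Bmi1-CPC. Their differences are therefore given as a description, with standard errors and no test of a single member.

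Retinol is oxidised to retinaldehyde by alcohol and retinol dehydrogenases, and retinaldehyde is oxidised to retinoic acid by the ALDH1A enzymes. Retinoic acid binds the receptors RARα, RARβ and RARγ, which sit on DNA as heterodimers with an RXR, and CYP26 enzymes clear it by hydroxylation. In the developing heart, ALDH1A2 of the epicardium is a known source of retinoic acid, and in the adult heart fibroblasts and epicardial cells are known to carry ALDH1A enzymes.

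Sorted cells of 3 kinds were compared by RNA-seq, with 4 libraries each. All came from adult mice carrying a tamoxifen-inducible Cre in 1 Bmi1 allele and a YFP reporter at Rosa26 (Bmi1CreER/+;Rosa26YFP/+, Bmi1-YFP), males and females, for which the sources give more than one age range. All mice received 3 daily doses of tamoxifen, 9 mg per 40 g of weight at a time. Bmi1-CPC were YFP+ cells taken 5 days after induction from uninjured hearts, and Sca-1-YFP- cells were the SCA-1+ cells without YFP from hearts in the same state, with 6 mice pooled per library. AMI Bmi1-CPC were YFP+ cells from hearts that underwent acute myocardial infarction (AMI) 5 days after induction and were harvested 5 days later, with 2 to 3 mice pooled per library. No library is described as sham-operated. Infarction therefore cannot be told apart from the operation, nor from pool size or the extra days after tamoxifen. The sample titles of both Bmi1-CPC groups read as SCA-1+ and YFP+, while the methods describe their sort on YFP. YFP marks cells in which the Bmi1 locus drove Cre at induction and all of their progeny, and the Cre is inserted in the Bmi1 locus of every group, Sca-1-YFP- cells included.

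The listed genes held 3397621 to 8078721 reads per library, with 4063619 to 4993906 in Bmi1-CPC and 6784686 to 8078721 in AMI Bmi1-CPC. Between 10.4% and 33.4% of these were reads of mt-Rnr2, a mitochondrial ribosomal RNA. With a floor of 3 reads, a count of 0 left room for values up to between 0.316 and 0.888 (counting error only). Bmi1 averaged 48.7 in Bmi1-CPC against 28.1 in Sca-1-YFP- cells, a log2 difference of 0.77 (adjusted p = 0.00137, limma), and 45.5 after AMI. Ly6a, which encodes SCA-1, averaged 809 in Bmi1-CPC against 642 in Sca-1-YFP- cells. In both uninjured groups replicate 4 had almost no Xist (1.80 and 3.45), unlike all other libraries, so the pools were not alike in sex. Each library was a pool of animals, so the spread between libraries is that between pools, amplification included. The normalized values used below are reads scaled by a factor per library, and log2 fold changes were taken from log2(value + 1), so that those of low genes come out too small.

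The sequences just before the start sites of 4 members are shown, since Adh1 and Cyp26b1 had the largest decreases among the members after AMI, Aldh1a2 the largest increase, and Rarb carries the element that RAR and RXR are known to bind. Each is the 150 bases before the RefSeq start (GRCm38.p6), 5′ to 3′ on the strand of the gene. Capitals mark matches to motifs searched on both strands with overlaps allowed. A TATA box was taken as the letters TATAAA. A GC box was read as GGGCGG. The CCAAT box was searched by its name's own letters. The nuclear receptor hexamer was AGGTCA, where G may also stand in the first place and T in the third, and it was searched as a direct repeat spaced by 1, 2 or 5 bases.
Adh1 (chr3:138277435-138277584, plus strand): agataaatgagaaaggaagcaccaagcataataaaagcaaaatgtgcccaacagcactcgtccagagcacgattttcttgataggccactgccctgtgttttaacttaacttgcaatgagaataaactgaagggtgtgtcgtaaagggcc
Cyp26b1 (chr6:84593811-84593960, minus strand): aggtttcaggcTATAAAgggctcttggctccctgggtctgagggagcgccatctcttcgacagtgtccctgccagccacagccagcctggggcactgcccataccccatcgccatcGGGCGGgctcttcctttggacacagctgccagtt
Aldh1a2 (chr9:71215639-71215788, plus strand): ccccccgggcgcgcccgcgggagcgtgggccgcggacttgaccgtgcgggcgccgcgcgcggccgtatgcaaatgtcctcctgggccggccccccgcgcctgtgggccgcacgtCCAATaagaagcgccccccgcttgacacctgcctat
Rarb (chr14:16575477-16575626, minus strand): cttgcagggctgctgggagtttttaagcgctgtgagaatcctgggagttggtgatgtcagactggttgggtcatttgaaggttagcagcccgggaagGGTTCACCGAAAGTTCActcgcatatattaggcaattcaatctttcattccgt
The capitals in Rarb are a direct repeat spaced by 5, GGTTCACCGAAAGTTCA, which begins 53 bases before the start. Such a repeat was found in 32 of the 32851 promoter windows of 300 bases in the RefSeq table (0.0974%). A repeat spaced by 1 was found in 0.222% of the windows and a repeat spaced by 2 in 0.268%. No window of the 8 members in the table other than that of Rarb holds any of these repeats, and Aldh1a3 was not among the 8. The window of Cyp26b1 holds a TATAAA, as do 13.6% of all windows, and 3 copies of GGGCGG, found in 35.7% of all windows. The window of Aldh1a2 holds a CCAAT, found in 37.4% of all windows, has a GC content of 78.0% and contains 50 CpG pairs. The Adh1 window has a GC content of 45.3% with 6 CpG pairs and holds none of the motifs searched.

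After AMI the largest differences were at both ends of the pathway: Adh1, which can start the oxidation of retinol, and Cyp26b1, which ends the action of retinoic acid, were both far lower in AMI Bmi1-CPC than in Bmi1-CPC. Adh1 (ENSMUSG00000074207, chromosome 3) had 142, 137, 65.9 and 96.5 in Bmi1-CPC 1 to 4. It had 14.7, 6.37, 8.87 and 15.5 in AMI Bmi1-CPC 1 to 4. Every library after AMI lay below every uninjured library, and the group means of 110 ± 35.9 and 11.4 ± 4.46 (SD, n = 4 each) stood 9.70-fold apart. The log2 fold change was −3.18 with a standard error of 0.28, rank 5 from the lowest among the 12486 genes tested. The values after AMI rest on 45 to 109 reads per library. Exons of the antisense gene Gm16559, not analysed here, overlap those of Adh1 on the other strand, and the libraries do not keep the strand.

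Cyp26b1 (ENSMUSG00000063415, chromosome 6) had 36.2, 39.3, 13.3 and 19.6 in Bmi1-CPC 1 to 4. It had 7.31, 1.19, 3.56 and 3.76 in AMI Bmi1-CPC 1 to 4. The groups again did not overlap, with means of 27.1 ± 12.7 and 3.96 ± 2.52 (SD, n = 4 each), which is 6.86-fold lower after AMI. The log2 fold change of −2.53 (standard error 0.40) had rank 15 from the lowest of the 12486 genes. The spread within each group was wide for Cyp26b1, and AMI Bmi1-CPC 2 rests on 8 reads.

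Between the uninjured populations the same 2 enzymes were higher on average in Bmi1-CPC, with overlapping libraries. Adh1 had 78.1, 83.5, 56.3 and 61.1 in Sca-1-YFP- cells 1 to 4 (mean 69.8 ± 13.1, SD, n = 4), a log2 fold change of Bmi1-CPC against Sca-1-YFP- cells of 0.61 with a standard error of 0.22. Cyp26b1 had 11.6, 20.6, 3.37 and 6.21 in Sca-1-YFP- cells 1 to 4 (mean 10.5 ± 7.59, SD, n = 4), a log2 fold change of 1.42 with a standard error of 0.45. Libraries of the same number in these groups deviated together over all genes, though no source states a pairing. Taken by number, the log2 difference was 0.85, 0.71, 0.22 and 0.65 for Adh1, and 1.56, 0.90, 1.71 and 1.51 for Cyp26b1. The genes were chosen with these values in view, so nothing is read from the signs. Over the 17 alternative analyses of this comparison the log2 fold change of Cyp26b1 ranged from 1.04 to 1.81 and that of Adh1 from 0.39 to 0.83.

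**Figure D1:**
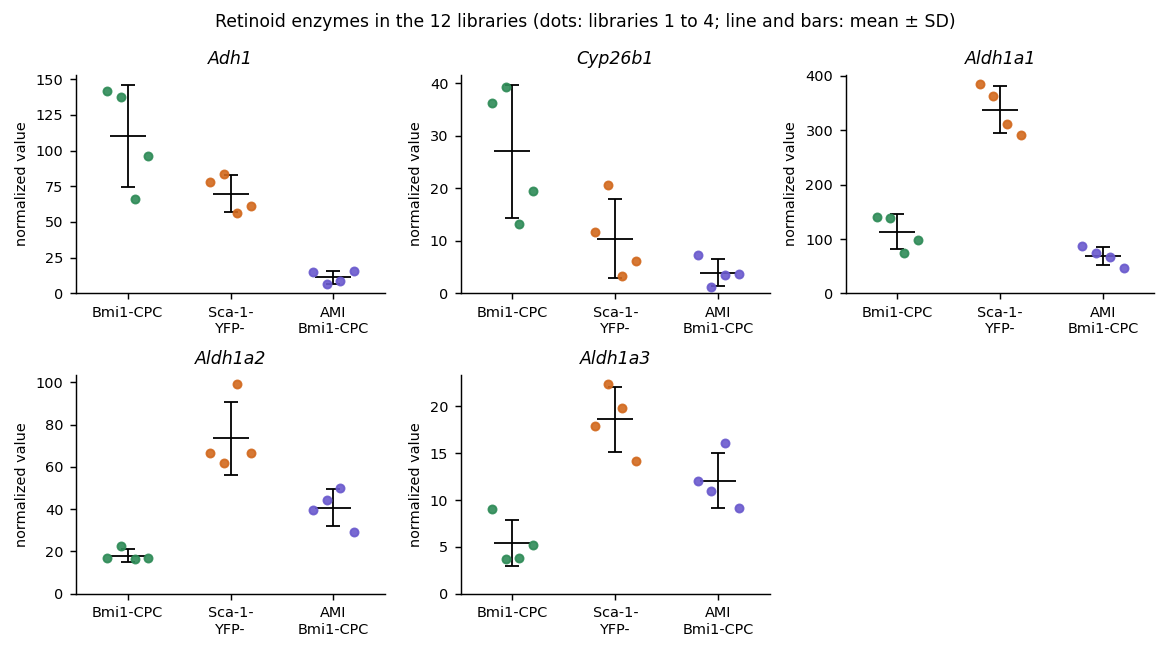
Normalized values (y axes, linear) of the 5 retinoid enzymes in the 12 libraries; dots are the 4 libraries of each group, lines and bars the mean ± SD. Adh1 and Cyp26b1 average lowest in AMI Bmi1-CPC (6.37 to 15.5 and 1.19 to 7.31), where Cyp26b1 overlaps with Sca-1-YFP- cells. Aldh1a2 and Aldh1a3 are lowest in uninjured Bmi1-CPC (16.2 to 22.5 and 3.73 to 9.02).

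The retinaldehyde dehydrogenases, which carry out the final step to retinoic acid, were all lower in Bmi1-CPC relative to Sca-1-YFP- cells, and after AMI they differed in direction. Aldh1a2 was 2.26-fold and Aldh1a3 2.22-fold higher on average after AMI, and Aldh1a1 was 1.66-fold lower. For each of these genes the uninjured groups did not overlap.

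Aldh1a1 (ENSMUSG00000053279, chromosome 19) encodes a broadly expressed retinaldehyde dehydrogenase. It had 141, 139, 75.2 and 98.9 in Bmi1-CPC 1 to 4, with 386, 364, 312 and 292 in Sca-1-YFP- cells 1 to 4. All Sca-1-YFP- libraries lay above all libraries of the other groups, and the mean was 2.98-fold that of Bmi1-CPC (log2 fold change of Bmi1-CPC against Sca-1-YFP- cells −1.60, standard error 0.19). After AMI it had 86.9, 74.6, 66.7 and 46 in libraries 1 to 4, a mean of 68.6 ± 17.1 against 114 ± 32.1 (SD, n = 4 each) and a log2 fold change of −0.71 with a standard error of 0.22. The libraries before and after AMI overlapped, and the log2 fold change ranged from −0.89 to −0.53 over the alternatives. The transcript of its close relative Aldh1a7, not analysed here, aligned with Aldh1a1 over 2069 bases at 88.9% identity.

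Aldh1a2 (ENSMUSG00000013584, chromosome 9), the enzyme that supplies retinoic acid in the embryo, had 16.7, 22.5, 16.2 and 16.7 in Bmi1-CPC 1 to 4. It had 66.4, 61.6, 99.3 and 66.6 in Sca-1-YFP- cells 1 to 4 and 39.6, 44.2, 49.9 and 29.3 in AMI Bmi1-CPC 1 to 4. The 3 groups were fully separated, in the order Sca-1-YFP- cells, AMI Bmi1-CPC, Bmi1-CPC. The mean in Sca-1-YFP- cells was 4.08-fold that in Bmi1-CPC (log2 fold change of Bmi1-CPC against Sca-1-YFP- cells −1.95, standard error 0.17). The mean after AMI was 2.26-fold that in Bmi1-CPC (log2 fold change 1.12, standard error 0.17).

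Aldh1a3 (ENSMUSG00000015134, chromosome 7) had the lowest values of the 3 enzymes, with 9.02, 3.73, 3.78 and 5.17 in Bmi1-CPC 1 to 4. It had 18.0, 22.4, 19.9 and 14.2 in Sca-1-YFP- cells 1 to 4 and 12, 11, 16.1 and 9.15 in AMI Bmi1-CPC 1 to 4. Bmi1-CPC stood below both other groups, while those groups overlapped. The log2 fold change of Bmi1-CPC against Sca-1-YFP- cells was −1.66 (standard error 0.25), and that of AMI Bmi1-CPC over Bmi1-CPC was 1.07 (standard error 0.25), a 2.22-fold higher mean. In Bmi1-CPC it rests on 15 to 30 reads per library. Of its 5 annotated transcripts, 1 holds a stretch of up to 192 bases that is at least 95% identical to transcripts of at least 23 other genes. The search kept a limited number of matches, so there may be more. Some reads could belong to those genes.

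Per kb of transcript the make-up of the 3 enzymes differed after AMI while their sum overlapped with that before. The summed normalized value per kb was 57.7 ± 14.8 in Bmi1-CPC, 181 ± 17.3 in Sca-1-YFP- cells and 50.6 ± 10.4 in AMI Bmi1-CPC (SD, n = 4 each). Aldh1a1 made up 83.0% ± 2.69 of this sum in Bmi1-CPC (79.4% to 85.7% over the 4 libraries), 79.0% ± 4.53 in Sca-1-YFP- cells and 57.2% ± 5.16 after AMI (51.4% to 63.7%). Aldh1a2 made up 14.3% ± 2.97, 18.0% ± 4.49 and 35.8% ± 4.09, and Aldh1a3 2.75% ± 0.912, 2.97% ± 0.415 and 6.99% ± 1.27 (SD, n = 4 each). For all 3 genes the shares in AMI Bmi1-CPC did not overlap with those in either uninjured group. The shares follow from the values that chose the genes, and no test was made of them.

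**Figure D2:**
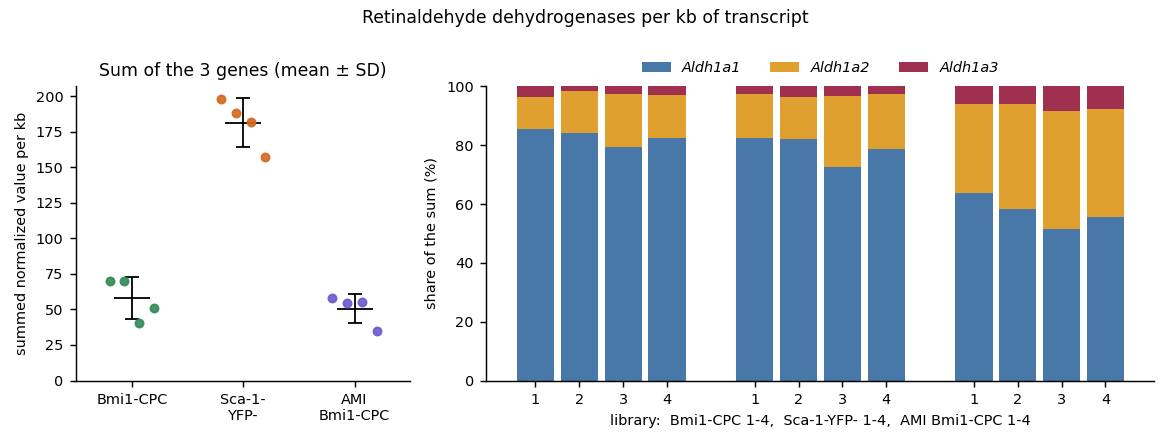
Left, the sum of Aldh1a1, Aldh1a2 and Aldh1a3 as normalized value per kb of transcript (dots, the 4 libraries of each group; lines and bars, mean ± SD). Right, the share of each gene in that sum for every library (percent, stacked bars); the Aldh1a1 share is 79.4% to 85.7% in Bmi1-CPC and 51.4% to 63.7% in AMI Bmi1-CPC.

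The sorted cells are bulk samples, in which fewer cells of a type and less RNA per cell cannot be told apart. Markers of several cell types also differed between the groups. The summed value of 12 fibroblast markers, none at 0 in any library, was 4339 to 8057 in Bmi1-CPC, 23396 to 27067 in Sca-1-YFP- cells and 13343 to 18544 in AMI Bmi1-CPC, with the 3 collagen genes Col1a1, Col1a2 and Col3a1 taking most of it after AMI. Those 3 summed to 1115 to 1815, 5409 to 7340 and 8684 to 13814. The other 9, mostly Dcn and Gsn, summed to 3224 to 6242, 17864 to 20962 and 4659 to 6246. Without the collagens the sums of Bmi1-CPC thus overlapped before and after AMI, though single genes of the 9 differed. Between the uninjured groups all 12 fibroblast markers were lower in Bmi1-CPC in limma (adjusted p under 0.05, median log2 fold change −2.10). After AMI 6 of the 12 rose, the 3 collagens with Lum, Dpt and Mfap5, and 2, Gsn and Tcf21, fell (median 0.72). The 6 epicardial markers in the tables, out of 14 listed, summed to 169 to 222, 473 to 617 and 214 to 317 in the same order of groups, mostly from Sulf1. Between the uninjured groups 2 of 5 tested were higher in Bmi1-CPC, Wt1 (34.5 against 10.4) and Gpm6a (6.97 against 1.17), and Sulf1 and Tbx18 were lower. After AMI Sulf1, Tbx18 and Lrrn4 rose and Wt1 fell to 21.7. Lrrn4 was at 0 in some libraries of both uninjured groups. The 8 others, among them the mesothelial genes Upk3b, Msln and Krt19, were not analysed here. The sum of 12 endothelial markers, none at 0, was 6590 to 8586, 1750 to 3627 and 3955 to 5946, and 9 of the 12 fell after AMI. The sum of 11 cardiomyocyte markers, none at 0, was 856 to 1425, 83.1 to 214 and 294 to 463, and 11 of 11 fell after AMI. The sum of 11 macrophage markers was 164 to 305, 19.1 to 36.6 and 792 to 1416, with 3 markers at 0 in all 4 Sca-1-YFP- libraries and none at 0 in the other groups. The removal of CD45+ cells is described for the sort of Sca-1-YFP- cells alone. The sum of 9 pericyte and smooth muscle markers, none at 0, was 1633 to 2567, 448 to 824 and 1657 to 2047, mostly from Rgs5 in the Bmi1-CPC groups. Between the uninjured groups 8 of the 9 were higher and 1 lower in Bmi1-CPC, and after AMI Acta2 and Tagln rose and Kcnj8, Abcc9, Cspg4 and Notch3 fell. The sum of 4 dendritic cell markers was 133 to 219, 50.3 to 88.0 and 109 to 174, with Ccr7 at 0 in some Sca-1-YFP- libraries. The endothelial and cardiomyocyte sums were lowest in Sca-1-YFP- cells and, between the Bmi1-CPC groups, lower after AMI. Adh1 was lowest after AMI, as was Cyp26b1 on average, with libraries that overlapped those of Sca-1-YFP- cells. The fibroblast sum was highest in Sca-1-YFP- cells and lowest in Bmi1-CPC, as were Aldh1a2 and Aldh1a3 on average. The collagen part of that sum was highest after AMI. The part of cell composition in the differences of the members was not tested.

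Among the receptors, Rxra and Rarg were lower after AMI without overlap, while Rara and Rarb overlapped between these groups. Rxra (ENSMUSG00000015846, chromosome 2), the common partner of the RARs, had 71.5, 77.1, 62.5 and 68.1 in Bmi1-CPC 1 to 4 and 39.6, 37.6, 43.2 and 35.1 in AMI Bmi1-CPC 1 to 4. The mean was 1.80-fold lower after AMI (log2 fold change −0.83, standard error 0.10), with little spread in either group. Sca-1-YFP- cells 1 to 4 had 64.3, 64.3, 75.8 and 65.0, and the log2 fold change of Bmi1-CPC over these cells was 0.05 (standard error 0.11).

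Rarg (ENSMUSG00000001288, chromosome 15), which encodes RARγ, had 30.6, 35.9, 20.6 and 26.6 in Bmi1-CPC 1 to 4 and 15.3, 11.4, 15.6 and 17.2 in AMI Bmi1-CPC 1 to 4. The mean was 1.91-fold lower after AMI (log2 fold change −0.88, standard error 0.18). In Sca-1-YFP- cells 1 to 4 it had 23.9, 28.4, 26.8 and 25.0, inside the range of Bmi1-CPC (log2 fold change 0.10, standard error 0.16). Scaled to library totals in place of the deposited factors, the small uninjured differences of Rxra and Rarg changed sign, to −0.21 and −0.12.

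Rara (ENSMUSG00000037992, chromosome 11), which encodes RARα, had 23.5, 29.5, 21.6 and 25.8 in Bmi1-CPC 1 to 4 and 31.2, 30.2, 35.7 and 35.7 in Sca-1-YFP- cells 1 to 4. The groups stood just apart (log2 fold change −0.39, standard error 0.13), and the log2 fold change ranged from −0.66 to −0.33 over the alternatives. After AMI it had 23.3, 24.9, 27.0 and 23.3, within the range of Bmi1-CPC (log2 fold change −0.02, standard error 0.12).

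Rarb (ENSMUSG00000017491, chromosome 14), which encodes RARβ and is a known target of retinoic acid through the repeat printed above, was the lowest receptor. It had 6.95, 8.64, 4.51 and 4.93 in Bmi1-CPC libraries 1 to 4, then 7.11, 9.03, 7.32 and 6.76 in Sca-1-YFP- cells and 7.31, 3.29, 6.41 and 3.62 in AMI Bmi1-CPC, in the same order. All 3 groups overlapped, with log2 fold changes of −0.27 (standard error 0.22) between the uninjured groups and −0.26 (standard error 0.26) after AMI. Its values are uncertain, because 1793 of its 5265 annotated exon bases also lie in exons of Top2b on the other strand, the libraries do not keep the strand, and Top2b averaged 218, 174 and 270 in the 3 groups.

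**Figure D3:**
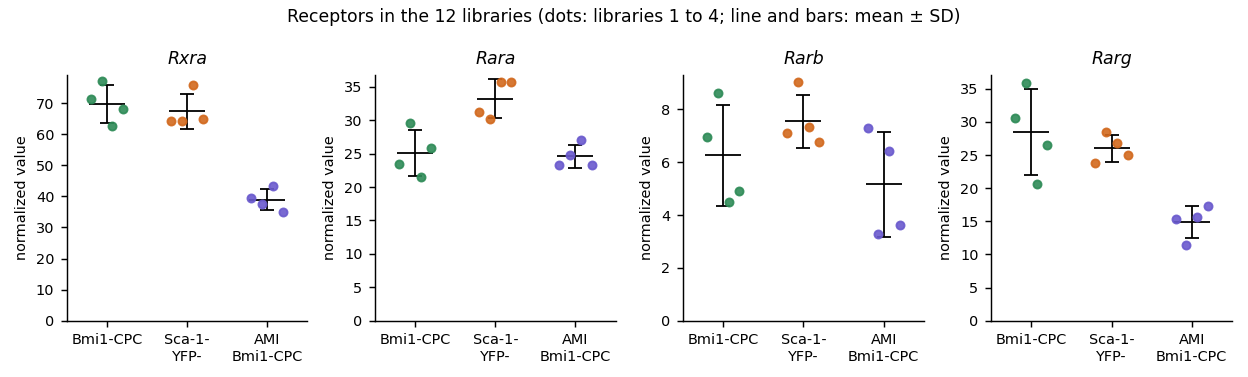
Normalized values (y axes, linear) of the 4 receptor genes in the 12 libraries; dots are the 4 libraries of each group, lines and bars the mean ± SD. The Rxra values in AMI Bmi1-CPC (35.1 to 43.2) and the Rarg values there (11.4 to 17.2) lie below those of Bmi1-CPC, and all groups overlap for Rarb.

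Within the RAR family the order of levels per kb differed between the groups. Of the summed level of the 3 RARs per kb, Rarg made up 50.2% ± 2.55 in Bmi1-CPC, 41.8% ± 2.12 in Sca-1-YFP- cells and 36.0% ± 4.42 in AMI Bmi1-CPC (SD, n = 4 each). Rara made up 39.3% ± 3.70, 46.6% ± 3.53 and 52.3% ± 5.33. Rarg led in Bmi1-CPC and Rara in AMI Bmi1-CPC without overlap of their shares, whereas in Sca-1-YFP- cells the shares of Rara and Rarg overlapped. Rarb stayed at 10.4% to 11.7% on average.

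Per kb of transcript, Adh1 led all 9 genes in Bmi1-CPC with 73.9 ± 24.1, ahead of Aldh1a1 with 48.2 ± 13.6 and Rxra with 14.2 ± 1.25 (SD, n = 4). The libraries of Adh1 and Aldh1a1 overlapped. In Sca-1-YFP- cells Aldh1a1 led with 143 ± 18.5, followed by Adh1 with 46.8 ± 8.76 and Aldh1a2 with 32.5 ± 7.67. In AMI Bmi1-CPC Aldh1a1 led with 29.1 ± 7.27, followed by Aldh1a2 with 18.0 ± 3.85, whose libraries overlapped with those of Aldh1a1. Rxra with 7.92 ± 0.694, Adh1 with 7.62 ± 2.99 and Rara with 7.27 ± 0.515 came next and overlapped. Adh1 was thus the highest of the 9 before injury and the fourth after it. Cyp26b1 was the lowest in Sca-1-YFP- cells (2.33 ± 1.69) and in AMI Bmi1-CPC (0.880 ± 0.561), and Aldh1a3 in Bmi1-CPC (1.58 ± 0.723).

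Counted over the family, the uninjured groups did not overlap for 4 of the 9 genes, Aldh1a1, Aldh1a2, Aldh1a3 and Rara, all lower in Bmi1-CPC, beside 33.7% of all 12450 genes tested. After AMI the groups did not overlap for 6 of the 9, with Aldh1a2 and Aldh1a3 higher and Adh1, Cyp26b1, Rarg and Rxra lower, beside 40.6% of all 12486 genes. The median log2 fold change of the 9 was −0.27 between the uninjured groups and −0.71 after AMI, against 0.0037 and −0.02 for all genes tested. Since the values of both contrasts were in view when the genes were chosen, nothing is read from these counts. Both comparisons use the same Bmi1-CPC libraries.

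**Figure D4:**
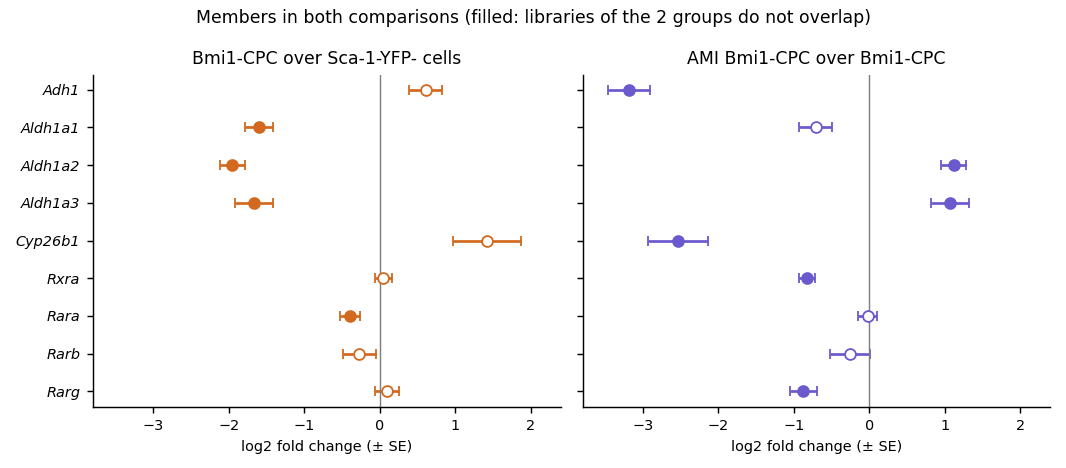
Log2 fold change (x axes, ± SE, on the log2(value + 1) scale) of the 9 genes between the uninjured populations (left) and after AMI (right), n = 4 libraries per group; filled dots are genes whose libraries do not overlap between the groups. Adh1 (−3.18) and Cyp26b1 (−2.53) lie farthest from 0 after AMI, where Aldh1a2 (1.12) and Aldh1a3 (1.07) lie on the other side.

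The other genes of retinoid handling were read from lists of 51 genes without the members, of which 27 are in the tables. Between the uninjured groups 5 of 26 tested were higher and 5 lower in Bmi1-CPC (38.5% called, median −0.08), and after AMI 3 of 27 rose and 7 fell (37.0% called, median −0.09). Of all genes tested 34.4% were called between the uninjured groups (limma, adjusted p under 0.05), 16.8% higher and 17.6% lower in Bmi1-CPC, and 43.4% after AMI, 21.4% higher and 22.0% lower, so the shares of the lists stood near those of all genes. Scaled to library totals in place of the deposited factors, 28.2% of all calls between the uninjured groups were higher in Bmi1-CPC, against 48.8% as deposited, and 60.8% of the calls after AMI were higher, against 49.3%. All genes then had a median of −0.25 and 0.08. Cyp1b1, a cytochrome P450 outside the CYP26 family that acts on oestrogens and retinoids, was the only gene in the tables from the list of hydroxylases other than Cyp26b1. Whether it made or cleared retinoic acid in these cells was not measured. It averaged 28.2 ± 4.91 in Bmi1-CPC, 95.7 ± 5.96 in Sca-1-YFP- cells and 153 ± 39.6 in AMI Bmi1-CPC (SD, n = 4 each). Its log2 fold change was −1.74 between the uninjured groups (adjusted p = 3.37e-06, limma) and 2.38 after AMI (adjusted p = 3.97e-06), in both comparisons opposite in sign to Cyp26b1.

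Of 6 tested genes of uptake, carriage and storage, 3 were higher and 1 lower in Bmi1-CPC relative to Sca-1-YFP- cells, and 2 fell after AMI. Rbp7, a cellular retinol binding protein, averaged 42.4 ± 12.4 in Bmi1-CPC, 10.6 ± 5.33 in Sca-1-YFP- cells and 22.1 ± 7.55 after AMI (log2 fold changes 1.96, adjusted p = 0.000148, and −0.94, adjusted p = 0.0118). Lpl, lipoprotein lipase, which helps cells take up retinyl esters, was higher in Bmi1-CPC relative to Sca-1-YFP- cells by 0.75 on the log2 scale (adjusted p = 0.00412) and fell by 1.46 after AMI (adjusted p = 1.33e-05). Fabp5, a fatty acid binding protein that can also carry retinoic acid, was higher in Bmi1-CPC relative to Sca-1-YFP- cells (58.3 ± 6.68 and 20.5 ± 6.00, adjusted p = 3.62e-05) and had 61.4 ± 8.40 after AMI, where it did not pass the test. Rbp4, the secreted retinol carrier, was low throughout, at 0.882 ± 0.627 in Bmi1-CPC against 7.01 ± 2.36 in Sca-1-YFP- cells (adjusted p = 0.000193).

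Of the enzymes between retinol and retinaldehyde, 1 of 9 tested was higher and 1 lower in Bmi1-CPC relative to Sca-1-YFP- cells, and 2 of 10 rose and 1 fell after AMI. Of the 2 that rose, Dhrs9 passed the filter on low values only through the AMI libraries. Dhrs3, a reductase that turns retinaldehyde back into retinol, averaged 106 ± 7.03 in Bmi1-CPC, 62.2 ± 14.1 in Sca-1-YFP- cells and 67.1 ± 12 after AMI (log2 fold changes 0.78, adjusted p = 0.00175, and −0.66, adjusted p = 0.00161). Rdh10, the main retinol dehydrogenase of the embryo, was lower in Bmi1-CPC relative to Sca-1-YFP- cells (13.1 ± 1.84 and 20.4 ± 3.07, log2 fold change −0.60, adjusted p = 0.0121) and had 16.0 ± 1.22 after AMI (log2 fold change 0.28, adjusted p = 0.13). Rdh11, a retinaldehyde reductase, rose after AMI from 5.88 ± 1.61 to 9.99 ± 1.35 (log2 fold change 0.69, adjusted p = 0.0111).

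Of 10 receptor partners and coregulators, 1 was higher and 2 were lower in Bmi1-CPC relative to Sca-1-YFP- cells, and 4 fell after AMI, with a list median of −0.12. Rxrb, the second RXR in the tables, fell from 8.54 ± 1.29 to 4.62 ± 0.896 (log2 fold change −0.77, adjusted p = 0.00519). The coactivator gene Ncoa3 was higher in Bmi1-CPC relative to Sca-1-YFP- cells (0.47, adjusted p = 0.00747), a call lost when scaled to library totals (0.24), and fell by 0.64 after AMI (adjusted p = 0.000945), Ncoa2 by 0.32 (adjusted p = 0.0317), a call lost under 6 alternatives, and Ppard, a nuclear receptor that pairs with RXRs, by 0.90 (adjusted p = 0.00114). Ncoa1 and Nrip1 were lower in Bmi1-CPC relative to Sca-1-YFP- cells (−0.94, adjusted p = 5.39e-05, and −0.99, adjusted p = 0.007) and had −0.10 and 0.09 after AMI.

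Of 29 listed genes known to respond to retinoic acid, 15 are in the tables. Between the uninjured groups 12 of 15 were called (80%, against 34.4% of all genes), 5 higher and 7 lower in Bmi1-CPC (median −0.11). The list was chosen with earlier results of these data known, so nothing is read from this share. Dhrs3 and Nrip1, both called here, are also counted in the lists above. After AMI 4 rose and 2 fell (40%, median −0.01), near the 43.4% of all genes. Tnfaip2 averaged 8.18 ± 2.49 in Bmi1-CPC, 29.3 ± 6.11 in Sca-1-YFP- cells and 36.3 ± 3.10 after AMI (log2 fold changes −1.74, adjusted p = 5.98e-05, and 2.06, adjusted p = 9.54e-06). The homeobox gene Meis2 averaged 18.3 ± 2.55, 49.5 ± 7.81 and 27.0 ± 2.88 (−1.39, adjusted p = 2.75e-05, and 0.54, adjusted p = 0.00681). Its relative Meis1 averaged 24.5 ± 2.60, 51.2 ± 7.27 and 23.1 ± 0.855 (−1.03, adjusted p = 7.99e-05, and −0.07, adjusted p = 0.637). Bhlhe40, a transcriptional repressor, averaged 353 ± 96.3, 651 ± 30.6 and 535 ± 71.3 (−0.92, adjusted p = 0.000612, and 0.62, adjusted p = 0.00868). Tgm2, tissue transglutaminase, went the other way with 239 ± 36.0, 131 ± 18.4 and 145 ± 19.2 (0.86, adjusted p = 0.0003, and −0.72, adjusted p = 0.000864), as did Dhrs3, which is on this list too. Cd38 was higher in Bmi1-CPC relative to Sca-1-YFP- cells (120 ± 11.6 and 43.1 ± 9.87, adjusted p = 1.51e-05) and Rarres2, which encodes chemerin, lower (30.4 ± 4.99 and 83.6 ± 11.2, adjusted p = 1.28e-05), and neither passed the test after AMI. Rarres2 passed it when AMI Bmi1-CPC 1 or Bmi1-CPC 3 was left out. These genes have other inputs than retinoic acid, whose level was not measured.

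**Figure D5:**
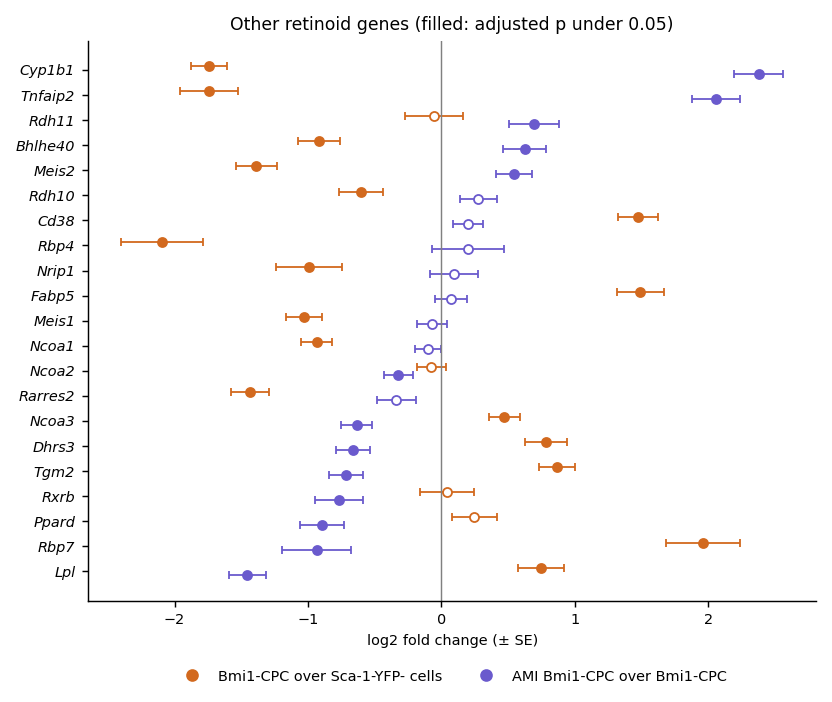
Log2 fold change (x axis, ± SE) of the named retinoid handling and retinoic acid responsive genes, uninjured comparison in orange and AMI in purple, n = 4 libraries per group; filled dots have a limma adjusted p under 0.05. Cyp1b1 (2.38) and Tnfaip2 (2.06) lie highest after AMI and Lpl (−1.46) lowest.

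Across the 12 libraries the genes most like each member, among 8192 compared, were found by Pearson correlation of log2(value + 1). The 12 points fall into 3 groups and share the same libraries, so the values are a description. For Adh1 they were Pcif1, Pou6f1 and Xdh (r = 0.98, 0.98 and 0.98), for Cyp26b1 Zfp276, Gltscr2 and Bcl2l1 (0.97, 0.97 and 0.95), and for Aldh1a1 Gaa, Ndrg2 and Pcolce2 (0.99 each). For Aldh1a2 they were Fndc1, Tgfbr2 and Antxr1 (0.98, 0.98 and 0.97), and for Aldh1a3 Lum, Fam171b and Ogn (0.97, 0.97 and 0.96), where Lum and Ogn encode small proteoglycans of connective tissue. For Rxra they were Abhd16a, Neurl4 and D4Ertd22e (0.98, 0.98 and 0.97), for Rarg St6galnac2, Ctdsp1 and Ptcd1 (0.98, 0.97 and 0.95), for Rara Man2b2, Fstl3 and Crtc3 (0.94 each), and for Rarb Rpl28, Gm12918 and Ctsf (0.86, 0.85 and 0.85).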

How the data were processed

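RNA of sorted cells was amplified (Ovation RNA-seq System v2), which keeps no strand, and sequenced. The submitters' processing notes name cutadapt, RSEM, edgeR and the mouse build NCBIM37, with no versions. The deposited values are a normalized signal: each equals whole reads plus 0.5 times a factor per library set by the authors (100% of values within 0.001 read), so reads were recovered. The authors' fold change score, log2 fold change and p-value columns are deposited too and were not used. The 2 tables hold the same values for Bmi1-CPC, so all 12 libraries share a scale.

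Genes past a value of 1 in 4 or more of the 8 libraries were fitted with limma 3.58.1 (R 4.3.3) on log2(value + 1) with a variance trend, two-sided, with Benjamini-Hochberg adjustment over all genes tested and a threshold of 0.05. Members and lists were chosen with earlier results of these data known. List genes not reported here were left out of the lists and their counts. The text names the 9 members, at most 5 called genes per list and comparison whose higher group averaged 5 or more, the 3 genes most like each member, and marker genes, of which those named at 0, in counts of markers or as not analysed were singled out afterwards. Levels per kb use the longest coding transcript of GENCODE (GRCm38), and shared stretches were found with blastn 2.17.0. In the uninjured groups same-numbered libraries correlated in their deviations from the group means at 0.26, 0.25, 0.16 and 0.30, so numbers were taken to pair them from the data alone, since no source states a pairing. Alternatives were pseudocounts of 0.5 and 5, no filter and a value above 5, edgeR 4.0.16 and DESeq2 1.42.0 on recovered reads, library totals, all 12 libraries together, the replicate block, and each replicate left out.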

Additional observations from a re-analysis of the deposited data

Results flagged for a closer look

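Among the 27 sets of 4 libraries examined (9 members in 3 groups), 3 held a library far from the others by Dixon's test, which chance alone does in about 1 in 20 sets. Aldh1a2 had 22.5 in Bmi1-CPC 2, where the other libraries of the group had 16.2 to 16.7. Aldh1a2 had 99.31 in Sca-1-YFP- cells 3, where the others had 61.6 to 66.6, and the log2 fold change of Bmi1-CPC against Sca-1-YFP- cells lay between −2.29 and −1.75 under every alternative. Rxra had 75.84 in Sca-1-YFP- cells 3, where the others had 64.3 to 65.0.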

How the results depend on the processing

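Over the 17 alternatives per comparison the log2 fold change after AMI ranged from −3.41 to −2.80 for Adh1, −2.83 to −1.79 for Cyp26b1, 0.98 to 1.29 for Aldh1a2 and 0.72 to 1.33 for Aldh1a3. Scaling recovered reads to library totals gave 1327 genes higher and 3386 lower in Bmi1-CPC relative to Sca-1-YFP- cells (main 2090 and 2196), 3 retinoic acid responsive genes higher there (main 5) and 1792 genes lower after AMI (main 2750), which the shift of all genes under that scaling accompanied. Leaving out 1 library at a time gave 1748 to 2156 genes higher and 1860 to 2194 lower between the uninjured groups, and 2187 to 2778 higher and 2269 to 2836 lower after AMI. With the replicate block 2267 were higher and 2400 lower between the uninjured groups. Same-numbered libraries before and after AMI did not deviate together (correlations 0.08, −0.01, −0.01 and 0.0017), and the replicate block gave 2590 higher and 2623 lower. Aldh1a3, Rarb and Cyp26b1 rest on few reads, down to 15, 18 and 8 per library, so small differences in them were not detectable at this depth.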

Other observations

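Within Bmi1-CPC most members varied together across the libraries. Library 3 was the lowest of the 4 for 8 of the 9 members, and was the lowest for 26.1% of the 9993 genes with a mean of at least 5 in that group. Aldh1a3 was the exception, with its lowest value in library 2. Library 1 was the highest for 3 members and library 2 for 6, beside 29.9% and 26.5% of the 9993 genes. In the same library 3 the 12 fibroblast markers summed to 4339, the lowest of the group, and the 12 endothelial markers to 8586, the highest. The 11 cardiomyocyte markers summed to 1425, with 856 to 894 in the others. Their part in the shared order was not tested. In Sca-1-YFP- cells and in AMI Bmi1-CPC no library was the lowest for more than 4 of the 9 members.

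Of the genes on the retinoid lists whose means were under the limit set for naming, Dhrs9, a retinol dehydrogenase, was singled out after its values were seen. It averaged 0.251 in Bmi1-CPC against 0.163 in Sca-1-YFP- cells, below the floor of 3 reads in these groups, and 2.43 ± 0.233 after AMI (SD, n = 4). With 0 to 1 reads per library in Bmi1-CPC and 16 to 18 after AMI, it passed the filter on low values only through the AMI libraries. Nothing is therefore read from its call, though it is among the list genes counted above as risen after AMI. Its log2 fold change of 1.46 depends on the 1 added to each value. Dhrs9 was higher alongside the macrophage markers, of which 10 of 11 rose after AMI, and their part in its values was not tested.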
